A study of Homo sapiens with 2 samples.

Results

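Levels of 9 genes of the laminin, integrin and hemidesmosome system were followed in single cells of 3 edited lines: LAMA3, LAMB3, LAMB1, LAMC1, ITGA6, ITGB4, ITGA3, ITGB1 and DST. The members were taken by symbol, and all 9 were found once each among the 33694 genes of the matrix. C1-sgKMT2D and C1-sgEED cells carried a knockout of KMT2D or of EED, and C1-sgControl cells carried a control guide. All descend from C1, a clone with epithelial traits taken from HMLER, an immortalised human mammary epithelial line made tumorigenic with oncogenes. KMT2D methylates histone H3 at enhancers, and EED belongs to PRC2, the Polycomb complex that represses genes by another methylation of H3. Each line wore its own hashtag antibody (hashtag 4 on C1-sgKMT2D, 3 on C1-sgEED, 1 on C1-sgControl), and the lines were pooled into 1 gene expression library. By the titles, clones were mixed, and how many made up a line is not stated. With 1 sample per line, no difference has a replicate check, no test was made, and every interval in parentheses is a 95% interval of counting error only.

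Laminins are secreted trimers of an alpha, a beta and a gamma chain that build the basement membrane under epithelial cells. In basal epithelia LAMA3 and LAMB3 are chains of the laminin that anchors the cell, and the integrin of ITGA6 and ITGB4 grips it from within hemidesmosomes, the junctions that tie keratin filaments to the membrane through plaque proteins such as PLEC and DST. LAMB1 and LAMC1 are chains of more widely made laminins, and the integrin of ITGA3 and ITGB1 also binds laminin but connects to actin. Basal mammary cells are known for hemidesmosomes, and epithelial cells that turn mesenchymal are known for losing them.

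Cells were split by 2 genes that are not members. A VIM-rich cell held more UMIs (distinct captured transcripts) of VIM, a mesenchymal intermediate filament, than of KRT17, a basal keratin, and a KRT17-rich cell held more KRT17. VIM-rich and KRT17-rich cells numbered 1164 and 1157 in C1-sgKMT2D, 1195 and 1111 in C1-sgEED, and 71 and 1633 in C1-sgControl. Median depth lay between 3478 and 6716 UMIs per cell in the 6 groups, lowest in the VIM-rich cells of C1-sgEED. Levels are UMIs of a gene per 1000000 gene UMIs of the group (CPM). The sum of 7 basal epithelial markers, which holds KRT17 and the member ITGA6, was at 1910 CPM in VIM-rich and 13632 CPM in KRT17-rich cells of C1-sgKMT2D, at 1081 and 9606 CPM in those of C1-sgEED, and at 3600 and 11952 CPM in those of C1-sgControl. VIM was at 4659 CPM in the VIM-rich cells of C1-sgKMT2D, 6836 CPM in those of C1-sgEED and 2061 CPM in the few of C1-sgControl. The sum of 5 mesenchymal markers, which holds VIM, was at 7145 CPM in VIM-rich and 4217 CPM in KRT17-rich cells of C1-sgKMT2D. It was at 10635 and 3293 CPM in those of C1-sgEED, and at 4342 and 3746 CPM in those of C1-sgControl. VIM was at 1106 CPM in KRT17-rich control cells, so without VIM the control sum was not higher in VIM-rich cells. Of the immune markers, PTPRC, CD3E and LYZ had 0 UMIs in all 6 groups, while CD68 was read at 8.93 to 19.9 CPM in the 6 groups. Whether the levels of the targeted transcripts reflect the edits was not tested, since a 3' count need not read an edited site. EED stood at 15.3, 13.4 and 13.6 CPM and KMT2D at 5.02, 3.02 and 4.63 CPM in C1-sgKMT2D, C1-sgEED and C1-sgControl. By state, EED was at 5.74 CPM (3.78 to 8.36) in VIM-rich and 20.1 CPM (16.5 to 24.2) in KRT17-rich cells of C1-sgEED. It was at 16.0 CPM (12.9 to 19.6) and 14.7 CPM (12.2 to 17.6) in those of C1-sgKMT2D and at 16.9 CPM (6.80 to 34.8) and 13.4 CPM (11.1 to 15.9) in those of C1-sgControl, so the lowest EED level was that of the VIM-rich C1-sgEED cells. KMT2D also had its lowest point value there, at 1.70 CPM (0.735 to 3.35, 8 UMIs). In KRT17-rich cells of C1-sgEED it was at 4.23 CPM (2.68 to 6.35, 23 UMIs), an overlapping interval.

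Promoter sequences are shown for the laminin chains, since LAMA3 and LAMB3 on one side and LAMB1 and LAMC1 on the other had different levels in the 2 states. They are the 250 bases before a transcript start in RefSeq, build GRCh38.p14, 5′ to 3′ on the gene's own strand. Capitals mark AP-1 motifs, TGANTCA, searched on both strands. The lines give LAMA3 at chr18:23872770-23873019 on the plus strand, LAMB3 from start 3 of the 3 listed at chr1:209651375-209651624 on the minus strand, LAMB1 at chr7:108003162-108003411 on the minus strand and LAMC1 at chr1:183023170-183023419 on the plus strand.
LAMA3: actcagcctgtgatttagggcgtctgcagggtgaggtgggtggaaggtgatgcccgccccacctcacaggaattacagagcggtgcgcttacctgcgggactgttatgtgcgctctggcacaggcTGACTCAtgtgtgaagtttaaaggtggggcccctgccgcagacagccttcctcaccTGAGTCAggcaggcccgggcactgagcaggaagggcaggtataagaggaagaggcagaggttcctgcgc
LAMB3: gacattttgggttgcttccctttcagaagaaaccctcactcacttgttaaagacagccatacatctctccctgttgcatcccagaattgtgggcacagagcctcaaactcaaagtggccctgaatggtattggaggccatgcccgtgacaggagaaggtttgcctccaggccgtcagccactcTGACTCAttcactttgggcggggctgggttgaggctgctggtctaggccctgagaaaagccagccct
LAMB1: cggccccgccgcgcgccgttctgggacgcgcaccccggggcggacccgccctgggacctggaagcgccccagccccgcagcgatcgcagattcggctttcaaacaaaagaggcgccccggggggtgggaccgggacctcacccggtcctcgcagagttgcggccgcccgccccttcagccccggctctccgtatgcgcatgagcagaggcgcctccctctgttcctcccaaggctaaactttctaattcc
LAMC1: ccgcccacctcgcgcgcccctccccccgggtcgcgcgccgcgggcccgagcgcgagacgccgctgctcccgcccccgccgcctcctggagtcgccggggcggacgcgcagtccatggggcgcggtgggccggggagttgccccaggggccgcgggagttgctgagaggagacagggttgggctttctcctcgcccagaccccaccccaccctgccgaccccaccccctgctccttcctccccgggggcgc
The LAMA3 sequence held 2 AP-1 motifs and the LAMB3 sequence 1, and no match lay in the sequences of LAMB1 and LAMC1. No match lay at any listed start of ITGA6, DST or ITGB1 either, though ITGA6 and DST were also lower in VIM-rich knockout cells. Of 35116 RefSeq promoters of this length, 6.57% held the motif. The LAMB3 start was shown because it held a match, and the other 2 LAMB3 starts held 0. The only LAMA3 start listed lies inside the annotated gene, which begins at chr18:23689443. Sequence before that first position was not searched, and the counts sum all LAMA3 isoforms. In LAMA3 the second AP-1 motif shares its first letters with a CACCTG, a motif bound by ZEB factors, which 17.5% of promoters held. GGGCGG, the GC box, was matched 4 times in LAMB1, 3 times in LAMC1 and 1 time each in LAMA3 and the LAMB3 start shown, against at least 1 match in 42.6% of promoters. RefSeq starts were found for 7 of the 9 members, not for ITGA3 and ITGB4, and a match is a description of letters, not of binding.

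LAMA3 and LAMB3, the alpha and beta chains of the anchoring laminin, were several-fold lower in VIM-rich cells than in KRT17-rich cells of both knockout lines, and LAMB1 and LAMC1 were not. LAMA3 (chr18:23689443-23956222, plus strand, GENCODE on GRCh38) was at 75.2 CPM (68.4 to 82.6) in VIM-rich and 304 CPM (292 to 317) in KRT17-rich cells of C1-sgKMT2D. In C1-sgEED it was at 47.9 CPM (41.8 to 54.5) in VIM-rich and 290 CPM (276 to 305) in KRT17-rich cells. In C1-sgControl it was at 399 CPM (340 to 464) in VIM-rich and 460 CPM (446 to 473) in KRT17-rich cells. LAMA3 was thus 4.04-fold lower (3.65 to 4.49) in VIM-rich cells of C1-sgKMT2D and 6.06-fold lower (5.27 to 6.998) in those of C1-sgEED, and the control groups had overlapping intervals. LAMB3 (chr1:209614870-209652466, minus strand) was at 139 CPM (129 to 148) in VIM-rich and 511 CPM (496 to 527) in KRT17-rich cells of C1-sgKMT2D. In C1-sgEED it was at 88.7 CPM (80.4 to 97.6) in VIM-rich and 450 CPM (432 to 468) in KRT17-rich cells. In C1-sgControl it was at 952 CPM (860 to 1051) and 859 CPM (840 to 878) in those states. Its level in VIM-rich cells was 3.69-fold lower (3.42 to 3.98) in C1-sgKMT2D and 5.07-fold lower (4.57 to 5.64) in C1-sgEED, while both control groups lay above all 4 knockout groups.

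LAMB1 (chr7:107923799-108003255, minus strand), a beta chain of other laminins, was at 67.4 CPM (60.9 to 74.4) in VIM-rich and 63.1 CPM (57.7 to 68.9) in KRT17-rich cells of C1-sgKMT2D. It was at 47.4 CPM (41.4 to 54.1) and 58.9 CPM (52.6 to 65.7) in those states of C1-sgEED, and at 62.8 CPM (41.0 to 92.0) and 58.9 CPM (54.1 to 64.0) in those of C1-sgControl. All 6 groups lay within a narrow band, and only the VIM-rich cells of C1-sgEED stood below their neighbour in the order of levels beyond counting error. LAMC1 (chr1:183023460-183145592, plus strand), a gamma chain shared by many laminins, was at 52.1 CPM (46.4 to 58.3) in VIM-rich and 35.8 CPM (31.8 to 40.3) in KRT17-rich cells of C1-sgKMT2D. It was at 40.4 CPM (34.9 to 46.6) and 25.6 CPM (21.5 to 30.2) in those states of C1-sgEED, and at 48.3 CPM (29.5 to 74.6) and 38.4 CPM (34.5 to 42.5) in those of C1-sgControl. LAMC1 was the one member higher in VIM-rich cells of both knockout lines with an interval clear of 1, by 1.45-fold (1.23 to 1.71) in C1-sgKMT2D and 1.58-fold (1.26 to 1.98) in C1-sgEED.

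**Figure D1:**
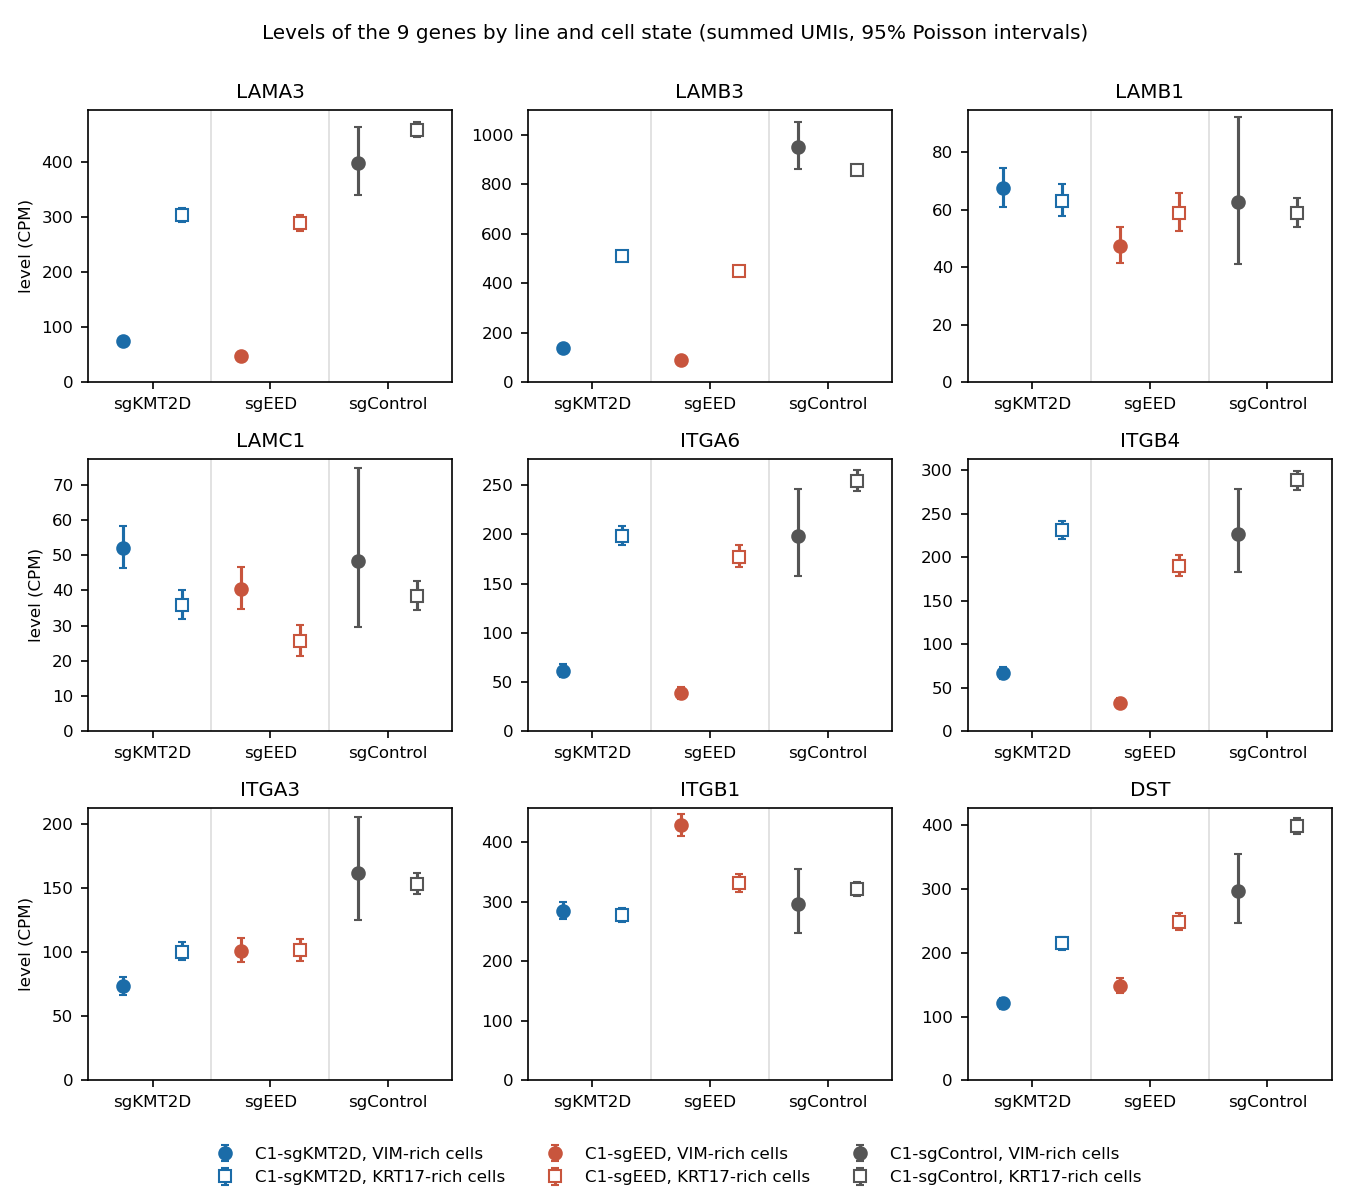
Level of each gene in CPM (summed UMIs scaled to the gene UMIs of the group, linear axis from 0) in VIM-rich (filled circles) and KRT17-rich (open squares) cells of C1-sgKMT2D, C1-sgEED and C1-sgControl, with 95% Poisson intervals. LAMA3, LAMB3, ITGA6 and ITGB4 are lowest in the VIM-rich cells of the 2 knockout lines, with ITGB4 at 66.7 and 32.8 CPM there.

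ITGA6 and ITGB4, the hemidesmosome integrin, were lower in VIM-rich knockout cells as LAMA3 and LAMB3 were. ITGA6 (chr2:172427354-172506282, plus strand) was at 61.5 CPM (55.3 to 68.1) in VIM-rich and 199 CPM (189 to 209) in KRT17-rich cells of C1-sgKMT2D. In C1-sgEED it was at 38.7 CPM (33.3 to 44.8) in VIM-rich and 178 CPM (167 to 189) in KRT17-rich cells, and in C1-sgControl at 198 CPM (158 to 246) in VIM-rich and 255 CPM (245 to 265) in KRT17-rich cells. ITGB4 (chr17:75721328-75757818, plus strand) was at 66.7 CPM (60.3 to 73.7) in VIM-rich and 231 CPM (221 to 242) in KRT17-rich cells of C1-sgKMT2D. Both subunits were more than 3-fold lower in VIM-rich cells of each knockout line. ITGB4 was at 32.8 CPM (27.8 to 38.4) in VIM-rich and 190 CPM (179 to 202) in KRT17-rich cells of C1-sgEED, and at 227 CPM (184 to 278) and 288 CPM (278 to 299) in those of C1-sgControl. In C1-sgKMT2D the VIM-rich cells were 3.23-fold lower (2.88 to 3.63) for ITGA6 and 3.46-fold lower (3.10 to 3.87) for ITGB4. In C1-sgEED they were 4.59-fold lower (3.91 to 5.41) for ITGA6 and 5.81-fold lower (4.90 to 6.92) for ITGB4. VIM-rich control cells were 1.29-fold lower (1.03 to 1.62) for ITGA6 and 1.27-fold lower (1.03 to 1.58) for ITGB4, inside the 1.5-fold bound used for calls.

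ITGA3 and ITGB1, which pair with each other, lay within 1.5-fold between the states of both knockout lines with the main split. ITGA3 (chr17:50055968-50090481, plus strand) was at 73.7 CPM (66.9 to 81.0) in VIM-rich and 100.5 CPM (93.6 to 108) in KRT17-rich cells of C1-sgKMT2D, 1.36-fold lower (1.21 to 1.54). This call hung on the split. With a 3-fold margin between VIM and KRT17 ITGA3 was 1.56-fold lower there, and with KRT5, KRT14 and KRT17 against VIM 1.60-fold lower. In C1-sgEED both states had 101 CPM, a ratio of 0.998 (0.881 to 1.13). In C1-sgControl ITGA3 was at 162 CPM (125.5 to 206) in VIM-rich and 154 CPM (146 to 162) in KRT17-rich cells, so the knockout lines were below the control in either state. ITGB1 (chr10:32900319-33005792, minus strand), the beta subunit shared by many integrins, was at 286 CPM (272 to 300) in VIM-rich and 278 CPM (267 to 290) in KRT17-rich cells of C1-sgKMT2D. It was at 429 CPM (410 to 448) and 331 CPM (316 to 347) in those states of C1-sgEED and at 297 CPM (247 to 355) and 321 CPM (310 to 333) in those of C1-sgControl. The VIM-rich cells of C1-sgEED held the highest ITGB1 level of the 6 groups, 1.29-fold above (1.21 to 1.38) the KRT17-rich cells of that line. ITGB1 lies on chromosome 10, whose genes had a median log2 ratio to C1-sgControl over whole lines of 0.22 for C1-sgKMT2D and 0.27 for C1-sgEED. Over all genes that median was -0.02 for C1-sgKMT2D and 0.09 for C1-sgEED, and the part of this shift in the ITGB1 levels was not tested.

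DST (chr6:56457987-56954628, minus strand), a plakin whose epithelial form links keratin to the hemidesmosome plaque, lay in between. Its level was 121 CPM (112 to 130) in VIM-rich and 215 CPM (205 to 225) in KRT17-rich cells of C1-sgKMT2D. In C1-sgEED it was 148 CPM (138 to 160) in VIM-rich and 249 CPM (235 to 262) in KRT17-rich cells, and in C1-sgControl 297 CPM (247 to 355) in VIM-rich and 399 CPM (387 to 412) in KRT17-rich cells. DST was 1.78-fold lower (1.63 to 1.95) in VIM-rich cells of C1-sgKMT2D and 1.67-fold lower (1.53 to 1.84) in those of C1-sgEED. The counts sum the isoforms of a gene, and the annotation lists 18 coding transcripts of DST that end in 10 separate places, so the epithelial form was not seen on its own.

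Counted together, VIM-rich over KRT17-rich cells of C1-sgKMT2D had 5 of the 9 members at least 1.5-fold lower and 0 higher, while 7.32% of 7472 genes were lower and 7.55% higher. In C1-sgEED 5 members were lower and 1 higher, beside 14.9% and 13.4% of 8029 genes. The 5 lower members were LAMA3, LAMB3, ITGA6, ITGB4 and DST in both lines, and the higher one was LAMC1. The median log2 ratio of the members was -0.83 in C1-sgKMT2D and -0.74 in C1-sgEED, beside 0.01 and 0.03 over all genes. In C1-sgControl 0 members were lower and 0 higher, beside 10.0% and 17.3% of 7862 genes, over 71 VIM-rich cells. The state ratio of C1-sgKMT2D was 1.68 times (1.37 to 2.05) that of C1-sgEED for ITGB4 and 1.498 times (1.26 to 1.78) for LAMA3. In the other direction it was 0.735 times (0.620 to 0.871) for ITGA3 and 0.793 times (0.725 to 0.868) for ITGB1. The ratios of DST (0.940, 0.828 to 1.07) and LAMC1 (0.920, 0.701 to 1.21) did not differ beyond counting error. Sizes hung on the split and the depth: with a 3-fold margin between VIM and KRT17, LAMA3 was 12.7-fold lower in C1-sgKMT2D and 13.6-fold lower in C1-sgEED, and ITGB4 was 8.21-fold lower in C1-sgKMT2D and 15.2-fold lower in C1-sgEED. In cells of at least 5000 UMIs, LAMA3 was 3.14-fold lower in C1-sgKMT2D and 3.74-fold lower in C1-sgEED, and LAMC1 with the 3-fold margin was 1.61-fold higher in C1-sgKMT2D and 1.49-fold higher in C1-sgEED.

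**Figure D2:**
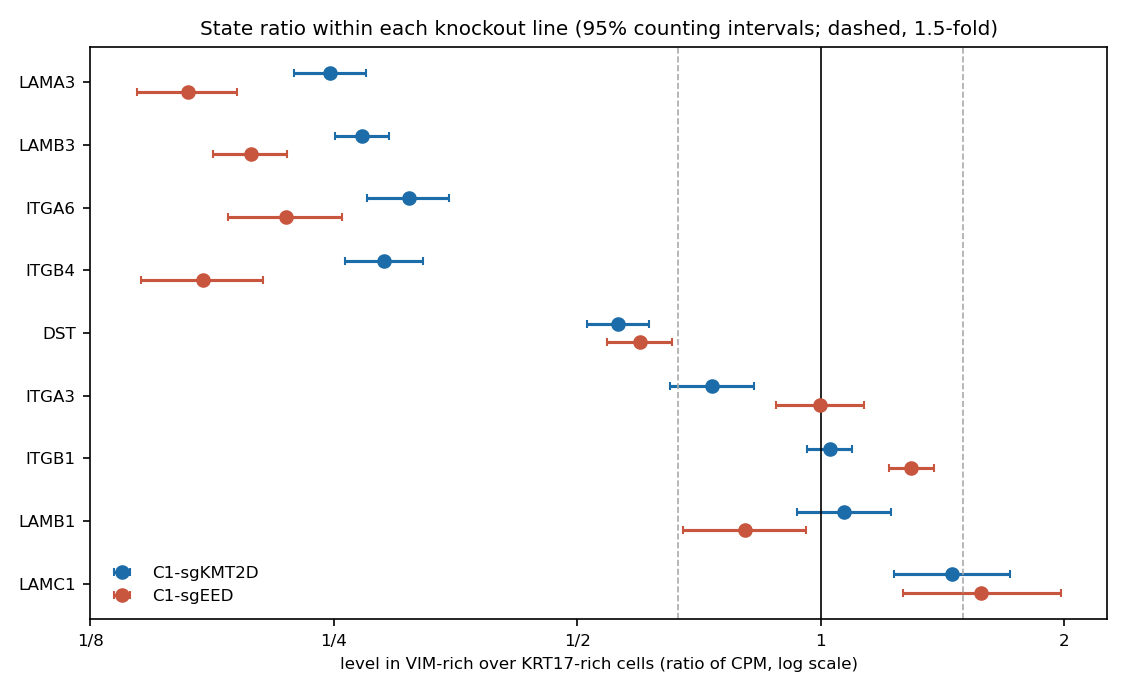
Ratio of the level in VIM-rich over KRT17-rich cells of C1-sgKMT2D (upper point of each pair) and C1-sgEED (lower point), on a log axis, with 95% counting intervals and dashed lines at 1.5-fold. LAMA3, LAMB3, ITGA6, ITGB4 and DST lie left of the lower dashed line, from 0.165 to 0.597, and LAMC1 lies at 1.45 in C1-sgKMT2D and 1.58 in C1-sgEED.

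Levels between the 2 states were read along the V share, the share of VIM in the VIM and KRT17 UMIs of a cell, in 5 bins. LAMA3 in C1-sgKMT2D was at 282, 323, 258, 129 and 19.1 CPM from the lowest bin to the highest, and in C1-sgEED at 269, 334, 259, 153 and 14.3 CPM. LAMA3 was near level over the first 3 bins and then far lower, most of all above a V share of 0.8. In that highest bin LAMA3 was 14.7-fold (11.5 to 19.1) below the lowest bin in C1-sgKMT2D and 18.8-fold (14.3 to 25.2) in C1-sgEED. For LAMB3 the fold was 12.1 (10.2 to 14.4) in C1-sgKMT2D and 14.2 (11.8 to 17.3) in C1-sgEED. ITGA6 was 9.34-fold lower (7.35 to 12.0) in C1-sgKMT2D and 9.09-fold lower (7.13 to 11.7) in C1-sgEED, and ITGB4 10.0-fold lower (7.92 to 12.8) in C1-sgKMT2D and 16.7-fold lower (12.1 to 23.6) in C1-sgEED. ITGB1, ITGA3, LAMB1 and LAMC1 lay between 0.637 and 1.61 times their lowest bin at this end. DST was 2.01-fold (1.77 to 2.28) lower in C1-sgKMT2D and 1.81-fold (1.62 to 2.03) lower in C1-sgEED. The C1-sgControl bins above a V share of 0.6 held 33 and 3 cells. The highest bin held 784 cells of C1-sgKMT2D and 1004 of C1-sgEED, so state contrasts in control and knockout lines span unlike V shares.

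**Figure D3:**
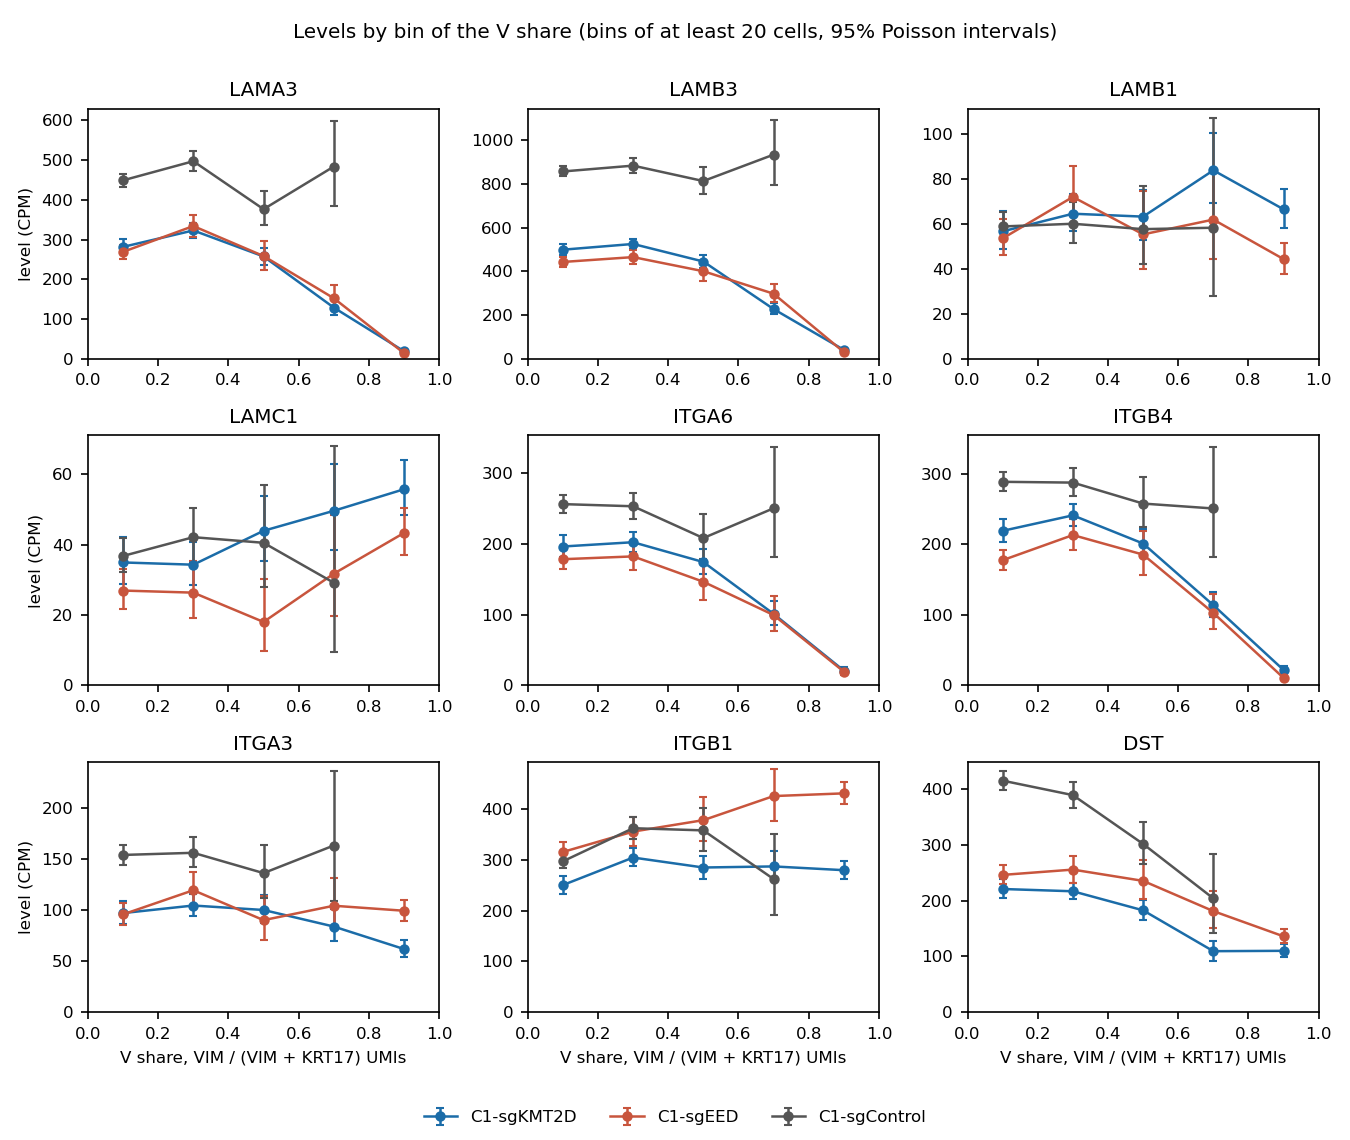
Level in CPM (linear axis from 0) against the V share in 5 bins for C1-sgKMT2D, C1-sgEED and C1-sgControl, with 95% Poisson intervals and bins of at least 20 cells. LAMA3, LAMB3, ITGA6 and ITGB4 drop over the 2 upper bins of the knockout lines, with LAMA3 at 19.1 and 14.3 CPM in the highest, while LAMB1, LAMC1, ITGA3 and ITGB1 do not drop in this way.

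What remained of the 4 genes in the highest bin was a small part of their level over all cells with 1 hashtag. LAMA3 stood there at 7.96% (6.19 to 10.1) of its pool level in C1-sgKMT2D and 5.97% (4.49 to 7.79) in C1-sgEED, and ITGA6 at 13.9% (11.0 to 17.4) in C1-sgKMT2D and 12.99% (10.2 to 16.3) in C1-sgEED. Free RNA in droplets can also give UMIs. COL3A1, a collagen of the mesenchymal cells, was read in C1-sgControl at 1.89% of its pool level, with an upper bound of 3.90%. IGFBP3 was read there at 10.2%, with an upper bound of 16.8%. The part of carried-over RNA in the last UMIs of the members was not tested.

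Per cell the same 4 genes were mostly unread in VIM-rich cells of the knockout lines. With each cell thinned to 2000 UMIs, 74.7% (72.0 to 77.2) of VIM-rich and 22.2% (19.8 to 24.8) of KRT17-rich cells of C1-sgKMT2D had 0 UMIs of LAMA3, LAMB3, ITGA6 and ITGB4 together. In C1-sgEED the shares were 80.1% (77.6 to 82.4) and 20.4% (18.0 to 23.0), and in C1-sgControl 7.81% (2.59 to 17.3) and 6.35% (5.19 to 7.68), for VIM-rich and KRT17-rich cells. Without thinning the shares with 0 were 59.1% and 7.26% in C1-sgKMT2D, 72.5% and 7.11% in C1-sgEED, and 1.41% and 1.78% in C1-sgControl. In every line and state but the VIM-rich knockout cells, most cells held at least 1 of these UMIs. VIM-rich control cells had lower V shares than VIM-rich knockout cells, as the bins above show, so these shares compare unlike cells. Cells too shallow to thin numbered 66 VIM-rich and 42 KRT17-rich in C1-sgKMT2D, 106 and 54 in C1-sgEED, and 7 and 75 in C1-sgControl. A cell with 5 or more of these UMIs was found among 2.46% of VIM-rich and 15.1% of KRT17-rich cells of C1-sgKMT2D, among 0.643% and 11.6% of those of C1-sgEED, and among 35.9% and 34.3% of those of C1-sgControl. Shares of thinned cells with an ITGB1 UMI were 42.2% in both states of C1-sgKMT2D, 55.6% and 48.3% in VIM-rich and KRT17-rich cells of C1-sgEED, and 50.0% and 46.9% in those of C1-sgControl. Without thinning they were 68.9% and 77.7% in C1-sgKMT2D, 74.5% and 74.8% in C1-sgEED, and 73.2% and 77.0% in C1-sgControl. COL3A1 gave a UMI in 19.9% of thinned VIM-rich cells of C1-sgKMT2D and 24.1% of those of C1-sgEED. In thinned KRT17-rich cells of C1-sgControl the share was 0.193% (3 cells). Its pool level was 37.3 CPM, against 151 CPM for ITGA6 and 468 CPM for LAMB3, the lowest and highest of the 4 genes. The share of COL3A1 therefore does not measure free RNA of these genes. Fewer cells with the transcript and less of it per cell cannot be told apart at this depth.

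**Figure D4:**
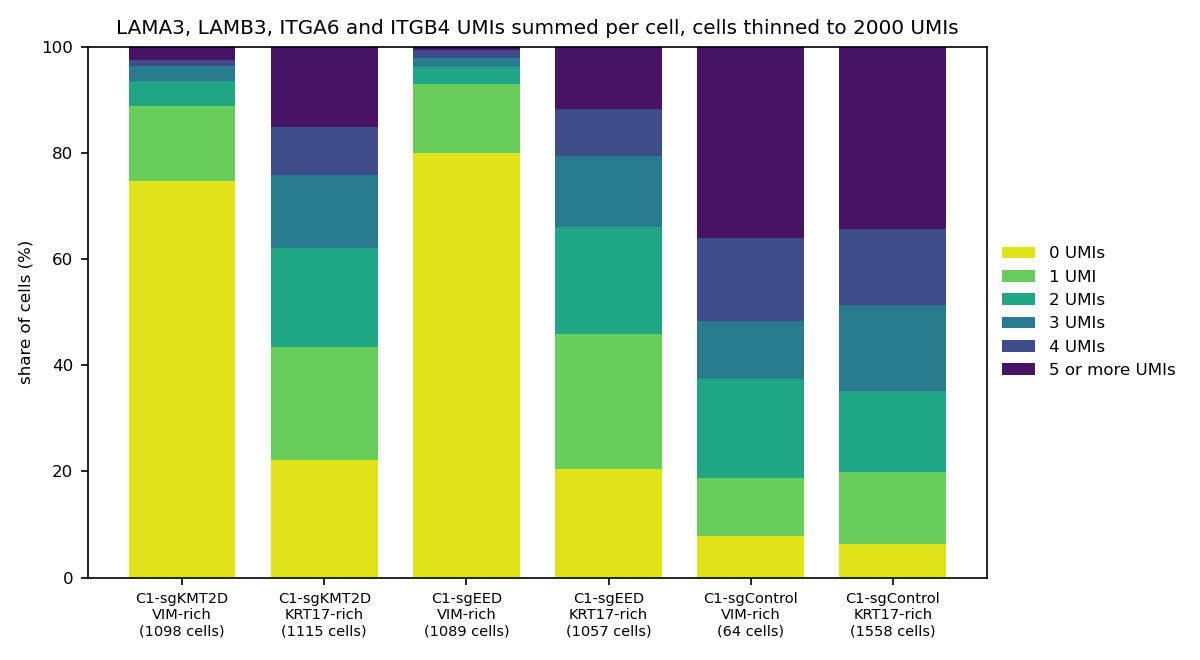
Share of cells (%, axis from 0 to 100) by the summed UMIs of LAMA3, LAMB3, ITGA6 and ITGB4, in cells thinned to 2000 UMIs, for VIM-rich and KRT17-rich cells of C1-sgKMT2D, C1-sgEED and C1-sgControl. Cells with 0 UMIs make up 74.7% and 80.1% of the VIM-rich cells of the knockout lines and at most 22.2% of the other 4 groups.

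Against C1-sgControl as whole lines, 6 members were at least 1.5-fold lower in each knockout line and 0 were higher, beside 14.5% lower and 7.72% higher of 7680 genes in C1-sgKMT2D, and 8.87% lower and 11.6% higher of 7894 genes in C1-sgEED. The 6 were LAMA3, LAMB3, ITGA6, ITGB4, ITGA3 and DST, and both comparisons share the control cells. LAMB3 was at 353 CPM (343 to 362) in C1-sgKMT2D cells and 283 CPM (272 to 293) in C1-sgEED cells, against 862 CPM (844 to 880) in the control line, 2.44-fold lower (2.36 to 2.53) in C1-sgKMT2D and 3.05-fold lower (2.92 to 3.18) in C1-sgEED. LAMB1, LAMC1 and ITGB1 lay between 0.844 and 1.18 times the control level. The median log2 ratio of the members was -0.83 in C1-sgKMT2D and -0.96 in C1-sgEED, beside -0.02 and 0.09 over all genes. In cells of at least 5000 UMIs, ITGB4 in C1-sgKMT2D was 1.47-fold lower and ITGA3 in C1-sgEED 1.43-fold lower, inside the bound. A whole-line ratio alone does not tell more VIM-rich cells from less transcript per cell. VIM-rich cells made up 49.6% of C1-sgKMT2D, 51.1% of C1-sgEED and 4.13% of C1-sgControl, and levels within KRT17-rich cells follow.

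Within KRT17-rich cells alone, the knockout lines were still below the control for the anchoring laminin. C1-sgKMT2D had 4 members at least 1.5-fold lower and 0 higher, beside 13.9% and 6.56% of 7623 genes, and C1-sgEED had 5 lower and 0 higher, beside 5.31% and 8.18% of 7803 genes. LAMB3 was 1.68-fold lower (1.62 to 1.74) in C1-sgKMT2D and 1.91-fold lower (1.83 to 2.00) in C1-sgEED. LAMA3 was 1.51-fold lower (1.44 to 1.59) in C1-sgKMT2D and 1.59-fold lower (1.496 to 1.68) in C1-sgEED. DST was 1.86-fold lower (1.75 to 1.97) in C1-sgKMT2D and 1.61-fold lower (1.51 to 1.71) in C1-sgEED. All members of the called set were lower in both lines, and 1 of them, ITGB4, passed the bound in C1-sgEED alone. ITGA3 was 1.53-fold lower (1.40 to 1.67) in C1-sgKMT2D and 1.51-fold lower (1.37 to 1.67) in C1-sgEED. ITGB4 was 1.25-fold lower (1.18 to 1.32) in C1-sgKMT2D and 1.52-fold lower (1.41 to 1.63) in C1-sgEED, and ITGA6 stayed inside 1.5-fold in both lines. LAMC1 lay at the bound in C1-sgEED, at 0.667 (0.544 to 0.813) of the control level. VIM in these KRT17-rich cells was itself at 2728 CPM in C1-sgKMT2D and 1163 CPM in C1-sgEED, against 1106 CPM in C1-sgControl. In the lowest bin of the V share, LAMB3 was still at 0.582 (0.550 to 0.616) of the control level in C1-sgKMT2D and 0.517 (0.488 to 0.548) in C1-sgEED, and LAMA3 at 0.627 (0.581 to 0.677) in C1-sgKMT2D and 0.599 (0.555 to 0.646) in C1-sgEED. The median log2 ratio of the members was -0.36 in C1-sgKMT2D and -0.60 in C1-sgEED, beside -0.03 and 0.08 over all genes. In cells of at least 5000 UMIs, 2 members were called lower in C1-sgKMT2D and 3 in C1-sgEED. The share over all genes at that depth is not given, so these counts are not set against it. There LAMA3 (1.43-fold) and ITGA3 (1.48-fold) in C1-sgKMT2D, and ITGB4 (1.32-fold), ITGA3 (1.41-fold) and DST (1.46-fold) in C1-sgEED, were inside the bound, and LAMC1 in C1-sgEED was 1.53-fold lower.

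The VIM-rich cells of C1-sgKMT2D, set against those of C1-sgEED, had 4 members at least 1.5-fold higher and 1 lower, beside 9.53% higher and 19.3% lower of 7773 genes. ITGB4 was 2.04-fold higher (1.69 to 2.47), ITGA6 1.59-fold (1.32 to 1.91), LAMA3 1.57-fold (1.34 to 1.85) and LAMB3 1.56-fold (1.39 to 1.76). ITGB1 was 1.501-fold lower (1.41 to 1.60), at the bound itself. Most of these calls changed with the split: with the 3-fold margin ITGA6, LAMA3 and LAMB3 were 1.16-fold, 1.17-fold and 1.16-fold higher, and ITGB4 was 2.28-fold higher. The median log2 ratio of the members was 0.51, beside -0.12 over all genes. KRT17 in the same cells was at 1135 CPM in C1-sgKMT2D and 709 CPM in C1-sgEED. In KRT17-rich cells 0 members passed 1.5-fold in either direction between these lines, beside 2.47% higher and 13.5% lower of 7694 genes.

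Shares within a pair of chains carry no scaling to the library. LAMB3 made up 67.3% (64.5 to 69.9) of the LAMB3 and LAMB1 UMIs in VIM-rich and 89.0% (88.1 to 89.9) in KRT17-rich cells of C1-sgKMT2D. It made up 65.2% (61.3 to 68.8) and 88.4% (87.2 to 89.6) in those of C1-sgEED, and 93.8% (91.1 to 95.9) and 93.6% (93.0 to 94.1) in those of C1-sgControl. The beta chains thus differed between states in both knockout lines and not in the control beyond counting error. The VIM-rich groups are not alike, however. The highest bin of the V share held 784 cells of C1-sgKMT2D and 1004 of C1-sgEED, against 3 of C1-sgControl. The part of this in the contrast with the control was not tested. ITGB4 made up 18.9% (17.3 to 20.7) of the ITGB4 and ITGB1 UMIs in VIM-rich and 45.4% (43.8 to 46.9) in KRT17-rich cells of C1-sgKMT2D, and 7.10% (6.05 to 8.26) and 36.5% (34.7 to 38.3) in those of C1-sgEED. In C1-sgControl it made up 43.3% (36.6 to 50.2) and 47.3% (46.0 to 48.6). ITGA6 made up 45.5% (42.0 to 49.0) and 66.4% (64.5 to 68.3) of the ITGA6 and ITGA3 UMIs in C1-sgKMT2D, 27.7% (24.3 to 31.2) and 63.7% (61.2 to 66.1) in C1-sgEED and 55.0% (46.7 to 63.2) and 62.4% (60.8 to 63.9) in C1-sgControl. Each pair therefore leaned away from its hemidesmosome member in VIM-rich knockout cells. A share of UMIs compares groups for a pair and does not give the ratio of the chains.

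**Figure D5:**
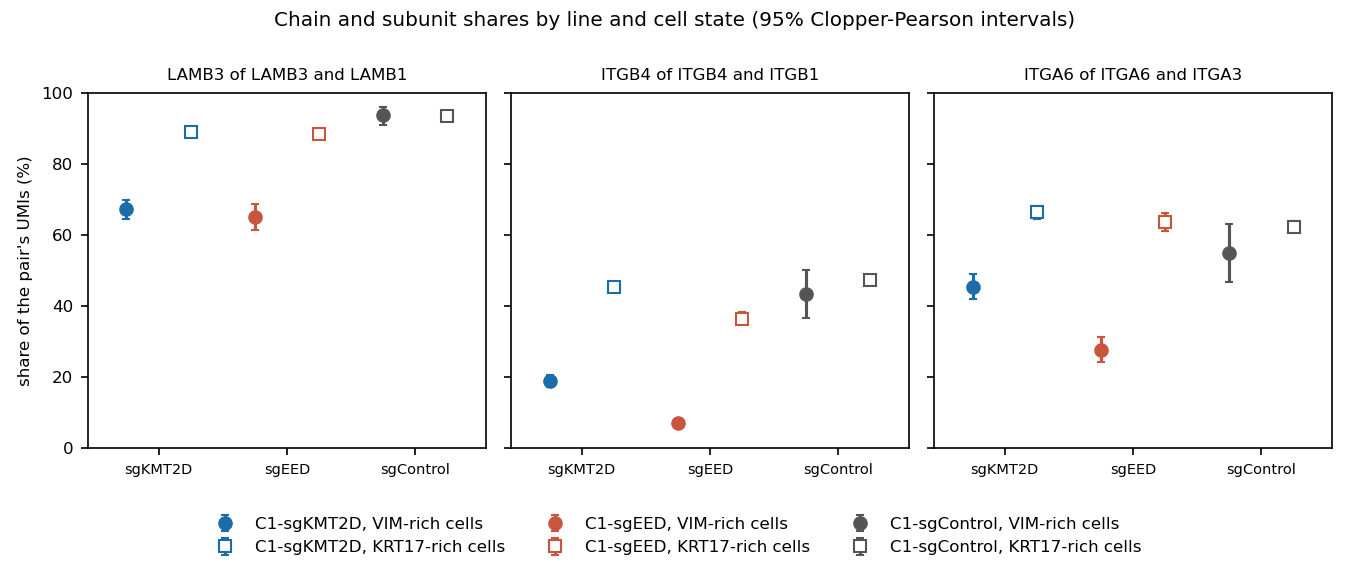
Share of the first gene in the UMIs of a pair (%, axis from 0 to 100) in VIM-rich (filled circles) and KRT17-rich (open squares) cells of C1-sgKMT2D, C1-sgEED and C1-sgControl, with 95% Clopper-Pearson intervals. The VIM-rich cells of the knockout lines are lowest in all 3 pairs, down to 7.10% for ITGB4 in C1-sgEED.

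Related genes that are no members were read from lists. LAMA5, an alpha chain of other laminins, was 1.34-fold lower in VIM-rich than in KRT17-rich cells of C1-sgKMT2D and 1.41-fold lower in those of C1-sgEED, inside the bound. Of 6 hemidesmosome partners, 4 were lower in C1-sgKMT2D and 3 in C1-sgEED, with list medians of -1.43 in C1-sgKMT2D and -1.65 in C1-sgEED (log2), beside 0.01 and 0.03 over all genes. Over all genes 7.32% were lower in C1-sgKMT2D and 14.9% in C1-sgEED. COL17A1, a collagen that spans the membrane at the hemidesmosome, was at 23.7 CPM in VIM-rich and 104 CPM in KRT17-rich cells of C1-sgKMT2D, 4.41-fold lower (3.68 to 5.31), and 7.80-fold lower (6.01 to 10.3) in C1-sgEED. The keratins KRT5 and KRT14, also among the basal markers above, were 4.495-fold and 5.86-fold lower in C1-sgKMT2D and 8.40-fold and 7.86-fold lower in C1-sgEED. KRT17, which set the split, is a basal keratin too, so their part in the count and median is not independent of the split. PLEC, the plakin that binds ITGB4, was 1.65-fold lower (1.44 to 1.89) in C1-sgKMT2D and 1.26-fold lower (1.10 to 1.44) in C1-sgEED.

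Counts in the other lists are read against all genes, of which 7.55% were higher and 7.32% lower in C1-sgKMT2D, and 13.4% higher and 14.9% lower in C1-sgEED. Of 11 alpha subunits that are no members, 4 reached 10 CPM in either state of C1-sgKMT2D, and for C1-sgEED the number was 6. Among these, 1 was higher and 1 lower in each knockout line. For C1-sgEED, 1 of 6 is a share near those over all genes in both directions. ITGA2, a collagen receptor subunit, was 2.69-fold lower (2.03 to 3.63) in C1-sgKMT2D and 2.31-fold lower (1.85 to 2.92) in C1-sgEED. ITGA11, another collagen receptor subunit, was at 18.1 CPM in VIM-rich cells of C1-sgEED against 0.368 CPM (2 UMIs) in its KRT17-rich cells, a ratio of 49.1 (13.2 to 412). ITGAV, which pairs with several beta subunits, was 1.54-fold higher (1.32 to 1.80) in C1-sgKMT2D. ITGB6, an epithelial subunit, was 3.36-fold lower (2.36 to 4.91) in C1-sgKMT2D and 6.20-fold lower (4.38 to 8.998) in C1-sgEED. Of 15 basement membrane genes 11 reached 10 CPM, of which 5 were higher and 0 lower in C1-sgKMT2D and 5 higher and 4 lower in C1-sgEED. COL4A1, a collagen IV chain, was 3.04-fold higher (2.49 to 3.74) in C1-sgKMT2D and 3.29-fold higher (2.80 to 3.88) in C1-sgEED, and COL4A2 2.00-fold higher (1.72 to 2.33) in C1-sgKMT2D and 2.42-fold higher (2.10 to 2.78) in C1-sgEED. Among 5 other laminin receptors 3 were lower in each line, with SDC1, a syndecan, 2.70-fold lower (2.29 to 3.19) in C1-sgKMT2D and 3.08-fold lower (2.58 to 3.69) in C1-sgEED. Of 16 focal adhesion adaptors at 10 CPM, 1 was higher and 4 lower in C1-sgKMT2D and 6 higher and 3 lower in C1-sgEED. The 1 higher in C1-sgKMT2D and the 3 lower in C1-sgEED are shares near those over all genes. FERMT1, an epithelial kindlin that activates integrins, was 3.01-fold lower (2.69 to 3.37) in C1-sgKMT2D and 4.31-fold lower (3.59 to 5.21) in C1-sgEED. The tensin TNS3 was 3.51-fold higher (2.63 to 4.73) in C1-sgKMT2D and 3.36-fold higher (2.36 to 4.87) in C1-sgEED. The medians of these lists (log2) in C1-sgKMT2D and C1-sgEED were 0.02 and 0.38 for alpha subunits, -0.15 and -0.10 for beta subunits, 0.36 and 0.32 for basement membrane genes, -0.60 and -1.23 for other laminin receptors and -0.06 and 0.19 for focal adhesion adaptors.

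Over the 6 groups of line and state, the log2 levels of LAMA3, LAMB3, ITGA6 and ITGB4 went together, with Pearson r from 0.968 to 0.997 among them, and DST with r from 0.846 to 0.908. LAMB1, LAMC1 and ITGB1 had r from -0.630 to 0.534 with these 4. ITGA3 lay between, with r from 0.605 to 0.770 with these 4 and 0.883 with DST. Among 6279 other genes the most like LAMA3 was COL17A1 (r = 0.998), and PTP4A1 (0.996) was also among the 3 most like it. EGFR, MST1R and AP2B1 were most like LAMB3 (0.998, 0.996 and 0.995), MTSS1, PTP4A1 and FGFBP1 most like ITGA6 (0.998, 0.996 and 0.996), and MTSS1, FGFBP1 and SYT8 most like ITGB4 (0.999, 0.996 and 0.995). For DST the genes were CTNND1, EFNB1 and CASP14 (0.990, 0.989 and 0.985), and for ITGA3 they were MYO5A, ELK3 and PALLD (0.986, 0.985 and 0.982). ITGB1 was most like TAGLN, TMEM167A and KIAA1211L (0.992, 0.990 and 0.990), LAMB1 most like SETD5, DUSP6 and MZT2A (0.990, 0.988 and 0.973) and LAMC1 most like TRAPPC2P1 (a copy of TRAPPC2, with which it may share reads), VPS28 and RIF1 (0.964, 0.952 and 0.932). A high r does not speak of the size of a difference: AP2B1 lay between 48.5 and 58.0 CPM, while LAMB3 lay between 88.7 and 952 CPM. The 6 points share 1 library and 2 of them share each line, so these values describe the groups and no more.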

How the data were processed

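Cells stained with hashtags were pooled for 10x Genomics 3' libraries, as stated in the labels' protocols. The authors deposited UMI counts, raw and per gene and barcode. The submitters' processing notes name Cell Ranger 3.0.2 and the build GRCh38. The annotation and barcode filter were not given in the sources used here.

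Of 10336 barcodes, 9193 with at least 500 genes and at most 20% mitochondrial UMIs were kept; the filter removed 5.89%, 6.78% and 27.2% of the barcodes of C1-sgKMT2D, C1-sgEED and C1-sgControl. A mixture of 2 normal components per hashtag called the line; 827 barcodes with several hashtags and 26 with none were left out, and doublets within a hashtag remain. Counts were summed per line and state and scaled to CPM of all gene counts (13957344 UMIs in C1-sgKMT2D, 10256770 in C1-sgEED, 9927122 in C1-sgControl). Sums have exact Poisson, ratios conditional binomial and shares Clopper-Pearson intervals at 95%; they cover counting error only. A gene of at least 10 CPM in either group was called at 1.5-fold. Counts were simulated with counting error only, from the KRT17-rich levels of C1-sgEED, with folds set for 200 genes. Of the intervals of 7473 genes 95.6% covered the set ratio, which does not check spread between cells or lines.

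The named genes are the 9 members, at most 4 examples per list with the largest absolute log2 ratio in a comparison, and the 3 genes most like each member among those of at least 20 CPM, by Pearson r of log2(CPM + 1). A few genes that meet the rule are not reported here. ERBIN is in the matrix under an older symbol. The members, lists and this rule were chosen with earlier results of these data known. Promoters came from RefSeq and gene positions from GENCODE. Python 3.11.15, numpy 2.4.6, scipy 1.17.1, pandas 2.3.3, scikit-learn 1.9.0 and matplotlib 3.10.9 were used. 10 alternatives, of which 1 was added after the data were seen, changed the cell filter, hashtag rule, state split, depth, scaling, summary, pseudocount or filter on low values.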

Additional observations from a re-analysis of the deposited data

Results flagged for a closer look

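LAMB1 in VIM-rich over KRT17-rich cells had a log2 ratio of 0.0947 in C1-sgKMT2D and -0.31 in C1-sgEED, point values of unlike sign. As ratios these were 1.07 (0.934 to 1.22), an interval that holds 1, and 0.805 (0.676 to 0.958). The ratio of the 2 state ratios was 1.33 (1.07 to 1.65, counting error only). ITGB1 against C1-sgControl in KRT17-rich cells had a log2 ratio of -0.21 in C1-sgKMT2D and 0.0446 in C1-sgEED, also of unlike sign. As ratios these were 0.866 (0.819 to 0.915) and 1.03 (0.972 to 1.09), of which the second interval holds 1. Set directly, the level of ITGB1 in C1-sgKMT2D was 0.840 times (0.789 to 0.894) that in C1-sgEED. With 1 sample per line neither difference was tested.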

How the results depend on the processing

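Of 513 ratios of members under the alternatives, 406 kept within the counting interval of the main value, 107 moved outside it and 0 changed sign when called; the largest shift was 1.65 (log2), leaving aside the alternative added after the data were seen, where it was 1.86. The member counts that moved by over 1.5 times follow. Shares over all genes under these settings are not given, so the counts show dependence on the processing only. With the 3-fold margin, members higher were 0 in the state comparison of C1-sgEED, 1 in that of C1-sgKMT2D and 1 in C1-sgKMT2D over C1-sgEED VIM-rich cells, where 2 were lower. The 50 CPM minimum gave 0 higher in the state comparison of C1-sgEED. In the state comparison of C1-sgKMT2D, the stricter cell filter (1000 genes, 10% mitochondrial), the mean of the cells' CPM and the added V share bounds of 0.8 and 0.2 each gave 1 higher. In KRT17-rich cells over C1-sgControl, the stricter cell filter and the 5000 UMI minimum each gave 2 lower in C1-sgKMT2D and 3 lower in C1-sgEED, and scaling without mitochondrial and ribosomal protein genes gave 2 lower in C1-sgKMT2D. In VIM-rich cells of C1-sgKMT2D over C1-sgEED, members higher were 2 at 5000 UMIs, 2 by the mean of cells and 1 with the added bounds. Members lower there were 0 with the stricter cell filter, at 5000 UMIs, with that scaling and with a pseudocount of 1 CPM, and 2 with the basal keratin sum, the mean of cells and the added bounds. The cause was not tested. No paired analysis was possible because each line is 1 sample. The 71 VIM-rich cells of C1-sgControl limit every value that rests on them, and 3' counts do not tell isoforms apart.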

Other observations

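Hashtag 2 was read on 1934 cells, the labels tie it to no line, and its cells enter no comparison between lines. They fell into 1319 VIM-rich and 580 KRT17-rich cells. LAMA3 was at 109 CPM (101 to 117) in its VIM-rich and 213 CPM (198 to 228) in its KRT17-rich cells, and LAMB3 at 302 CPM (289 to 315) and 662 CPM (637 to 688). ITGA6 was at 80.1 CPM (73.7 to 87.0) and 166 CPM (154 to 180), ITGB4 at 84.7 CPM (78.1 to 91.7) and 188 CPM (175 to 202), and DST at 169 CPM (159 to 179) and 350 CPM (331 to 369). These 5 members were 1.95-fold to 2.22-fold lower in VIM-rich cells, and 0 members were higher, beside 7.35% lower and 6.05% higher of 6970 genes. LAMB1 was at 34.7 CPM and 26.3 CPM, LAMC1 at 27.6 CPM and 19.9 CPM, ITGA3 at 75.1 CPM and 95.6 CPM, and ITGB1 at 374 CPM and 408 CPM in VIM-rich and KRT17-rich cells, all within 1.5-fold. In the highest bin of the V share LAMA3 was at 39.8 CPM and LAMB3 at 114 CPM.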
